A study of Mus musculus with 7 samples.

Results

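Prostaglandins and leukotrienes are short-lived lipid signals that cells make from arachidonate, and 10 genes of their synthesis and turnover are described here among the 23930 genes of the deposited table. The members are the cyclooxygenases Ptgs1 and Ptgs2, the terminal prostaglandin synthases Ptges and Hpgds, the 5-lipoxygenase Alox5 with its partner Alox5ap, the leukotriene enzymes Lta4h and Ltc4s, and the membrane dipeptidases Dpep2 and Dpep3. They were matched by gene symbol, and all 10 were found. The list was chosen by its values in the comparison of hypercapnia with normocapnia in these same libraries, above all the low Dpep3 in hypercapnia, so that comparison is given for the members as a description. Where a member is said to meet the call thresholds, this places its value beside those of other genes and is no test of the member.

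RNA was measured in bulk in sorted Pax7-GFP cells of mouse hind leg muscle, with 3 libraries from normocapnia, NC1 to NC3, and 4 from hypercapnia, HC1 to HC4. All 7 libraries came from inducible Pax7-GFP mice that received tamoxifen at 12 weeks of age, spent 4 weeks in their gas condition and were collected at 16 weeks. Normocapnic mice breathed room air and hypercapnic mice 10% CO2, a level given by the methods. The genotype label reads C57BL/6 in NC1 and its last number rises by 1 from label to label up to C57BL/12 in HC4, whereas the growth protocol gives C57/B6 in all 7.

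In this line tamoxifen-activated Cre, placed behind the stop codon of Pax7, removes a block in front of a green reporter, so that Pax7-expressing cells and their progeny stay green. Both groups carried the reporter and received tamoxifen. According to the methods, both groups also underwent cardiotoxin injury 3 days before sorting, and the cells were sorted fresh. The labels mention neither injury nor culture, and the name of the deposited table gives 40 hours, so the time after injury is not settled by the sources. Whether a library holds 1 mouse or a pool is not given, nor is the sex of the mice in each library. The p-values therefore measure the spread between these samples, which may be technical in part. The hypercapnic libraries formed close pairs, HC1 with HC2 and HC3 with HC4, whose reads differed by a chi-square per degree of freedom of 22.5 and 25.97, against 98.5 to 124 across these pairs and 337 to 475.5 within normocapnia. What the paired libraries share is not given, so n = 4 may overstate the independent samples.

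The cyclooxygenases turn arachidonate into an unstable endoperoxide, from which terminal synthases make the individual prostaglandins. In the other branch, 5-lipoxygenase, fed by its membrane partner, makes leukotriene A4, which is turned into leukotriene B4, an attractant of neutrophils, or joined to glutathione as leukotriene C4. Peptidases then trim leukotriene C4 to the D and E forms. In injured muscle, mast cells and macrophages are known sources of both families, and prostaglandin E2 is known to promote the expansion of satellite cells through the receptor encoded by Ptger4.

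Each value gives RPM, a read count relative to the library total, from a panel that amplifies 1 stretch of each gene, so a level compares a gene between libraries and not genes with each other. Library totals ran from 14527445 to 23388710 reads, and 3 reads, taken as the floor, stood for 0.128 to 0.207 RPM. Fold changes are hypercapnia minus normocapnia on log2(RPM + 1), with a standard error from limma, a linear model that shares the spread over all genes. The call thresholds, taken from the study, were an unadjusted p under 0.05 together with more than a 1.5-fold difference. Of all genes, 2.57% were called in either direction and 1.14% were called lower in hypercapnia. After Benjamini-Hochberg adjustment limma called 0 genes, or 0.0%, while 1114 had an unadjusted p under 0.05. On whole reads recovered from the table, edgeR also called 0 genes after adjustment and DESeq2 called 29, or 0.139% of those it tested.

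The labels call the cells Pax7+ stem cells, and Pax7 itself ran from 4.34 RPM in NC3 to 268 RPM in NC1, with 21.5, 20.1, 79.5 and 59.7 RPM in HC1 to HC4. Macrophage markers were abundant in all libraries. The summed level of 10 of 10 macrophage markers was 11711, 22516 and 34926 RPM in NC1 to NC3 and 19924 to 24152 RPM in hypercapnia, most of it Lyz2, which encodes a lysozyme. The summed level of 8 of 8 mast cell markers, led by the proteases Cma1 and Tpsb2, was 1301 to 1934 RPM in normocapnia. In HC1 and HC2 it was 1103 and 873 RPM, against 2450 and 2447 RPM in HC3 and HC4. In bulk samples fewer cells of a type and less RNA per cell cannot be told apart. In Pax7 and in the macrophage sum, NC1 and NC3 stood at opposite ends of normocapnia, so values without single libraries stand beside most members. NC1 had the highest Pax7 and the lowest macrophage sum, and NC3 the reverse. Single macrophage markers did not all follow this order. Within normocapnia Lyz2, Cd68, Fcgr1 and Ms4a7 were highest in NC3. Adgre1, Csf1r, Cd14, Mrc1, Mertk and Itgam were highest in NC2, and Adgre1 and Cd14 were lowest in NC3.

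Of the 8 members with a promoter in the RefSeq table used here, Dpep3 is shown, because it had the largest difference among the members. The window is the 250 bases before its annotated start on the minus strand of GRCm38.p6, chr8:105979420-105979669. Capitals mark GGAA and its reverse complement TTCC, the core bound by ETS factors.
Dpep3: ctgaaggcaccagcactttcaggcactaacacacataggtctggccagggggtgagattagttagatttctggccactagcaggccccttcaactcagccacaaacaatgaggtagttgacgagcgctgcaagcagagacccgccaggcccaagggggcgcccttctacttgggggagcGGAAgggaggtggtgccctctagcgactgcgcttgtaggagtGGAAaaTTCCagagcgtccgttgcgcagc
Its GC content was 58.4%, against a median of 52.4% over all 32851 promoter windows of that length. GGAA, searched on both strands, occurred 3 times in this window and was present in 8 of 8 member promoters, but also in 93.4% of all promoters. The window held no TATAAA, which 12.4% of promoters hold, no CCAAT (33.8%), no CANNTG (66.2%) and no GGGCGG (32.7%). CANNTG was found in 5 of the 8 member windows, those of Ptgs1, Ptgs2, Ptges, Hpgds and Ltc4s. TGANTCA and TGACGTCA, held by 6.75% and 1.55% of promoters, were found in none of the 8.

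Among the members, the pair of membrane dipeptidases was lower in hypercapnia and the prostaglandin genes were mixed. The other leukotriene genes, Alox5, Alox5ap, Lta4h and Ltc4s, lay lower on average with groups that overlapped. Dpep2 and Dpep3 were the 2 of 10 members that met the call thresholds, both lower. This count follows from how the list was drawn up, and nothing is read from it against the 2.57% of all genes. The median log2 fold change was -0.37 over the members, 0.02 over all genes and 0.16 over the 12504 genes averaging 1 RPM or more. Values were below 0 in 8 members and above 0 in Ptgs1 and Hpgds, of which Ptgs1 was below 0 with either rescaling and in both count models. The groups did not overlap in 2 of 10 members, against 4.83% of all genes and 7.72% of genes at 1 RPM or more, and 3.63% of the latter had every hypercapnic library below every normocapnic library. Ptges was the only member with a mean under 1 RPM.

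**Figure D1:**
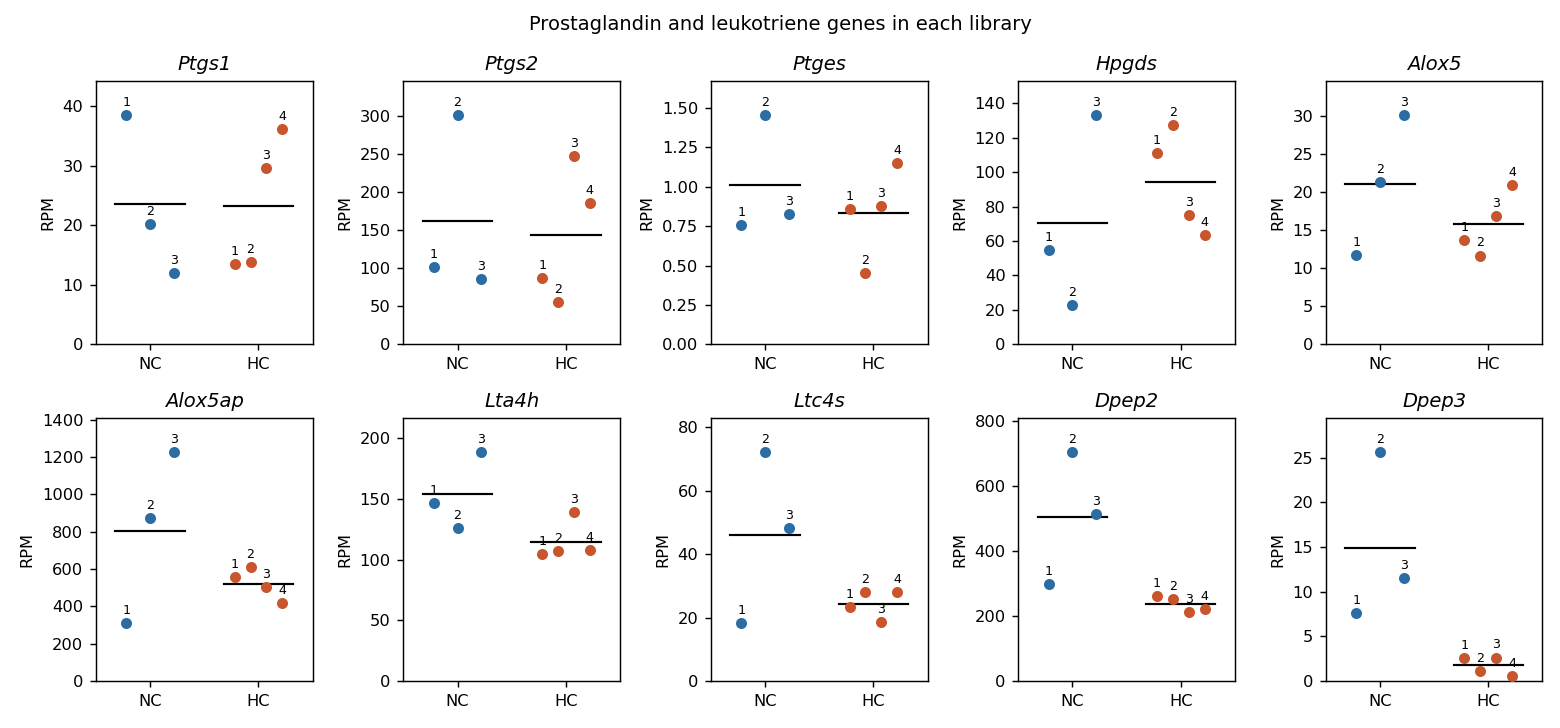
Level of each of the 10 members in RPM, each panel on its own linear axis from 0, with 1 point per library (numbers are library numbers) and a black line at the group mean for normocapnia (NC) and hypercapnia (HC). The groups are apart for Dpep2 and Dpep3 and overlap for the other 8 genes.

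Ptgs1 encodes COX-1, the cyclooxygenase that most tissues express steadily. Its level was 38.4, 20.2 and 12.0 RPM in NC1 to NC3 versus 13.5, 13.8, 29.7 and 36.1 RPM across HC1 to HC4. NC1, HC3 and HC4 were high and NC3, HC1 and HC2 low, so each group spanned nearly the whole range. The group means of 23.5 ± 13.5 RPM (SD, n = 3) and 23.3 ± 11.4 RPM (SD, n = 4) gave a log2 fold change of 0.0041 (SE 0.54), whose sign differed in 10 of 17 alternative analyses. Without NC1 it was 0.42 and without NC3 -0.38.

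Ptgs2 encodes COX-2, the inducible cyclooxygenase. Its level was 101, 300.4 and 85.9 RPM in NC1 to NC3 versus 86.9, 56.0, 247 and 185 RPM across HC1 to HC4. NC2, HC3 and HC4 were high and HC2 was lowest, so high and low libraries occurred in both groups. Means were 162 ± 120 RPM (SD, n = 3) in normocapnia and 144 ± 87.9 RPM (SD, n = 4) in hypercapnia. This gave a log2 fold change of -0.17 (SE 0.71), which became 0.39 without NC2.

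HC3 and HC4 thus held more of both cyclooxygenase transcripts than HC1 and HC2. The same libraries held more of the mast cell markers given above and of 6 endothelial markers, whose sum was 516 and 393 RPM in HC3 and HC4 against 60.8 and 47.3 RPM in HC1 and HC2. The sums of fibro-adipogenic markers (1825 and 2230 against 1035 and 935 RPM), satellite cell markers (1694 and 1408 against 919 and 855 RPM) and neutrophil markers (331 and 232 against 149 and 105 RPM) stood the same way. The platelet marker sum stood the opposite way, at 1121 and 1047 against 2739 and 2618 RPM, mostly through Pf4 (1040 and 985 against 2701 and 2557 RPM). Of the other platelet markers, Itga2b stood the reverse way to this sum (6.50 and 6.36 against 2.53 and 1.96 RPM). Ppbp overlapped (74.1 and 53.4 against 35.3 and 58.9 RPM), and the rest averaged less than 1 RPM. Macrophage markers summed to 19924 and 20139 against 24152 and 20750 RPM. The part of these cells in the cyclooxygenase levels was not tested.

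Ptges encodes the microsomal prostaglandin E synthase, which often works together with COX-2. Its level was 0.758, 1.45 and 0.826 RPM in NC1 to NC3 versus 0.856, 0.452, 0.875 and 1.151 RPM across HC1 to HC4. All values were above the floor of 3 reads, and the groups overlapped. The log2 fold change was -0.13 (SE 0.18). It was -0.43 with quantile normalization and in edgeR with and without a filter, -0.47 in DESeq2 and 0.02 without NC2. Ptges was called in none of these, and no difference of either sign could be resolved at these low levels.

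Hpgds encodes the hematopoietic prostaglandin D synthase of mast cells and macrophages. Its level was 55.0, 22.7 and 133 RPM in NC1 to NC3 versus 111, 128, 74.8 and 63.3 RPM across HC1 to HC4. NC3 was the highest library of all and NC2 the lowest, and within hypercapnia HC1 and HC2 exceeded HC3 and HC4, the reverse of the cyclooxygenases. Means were 70.2 ± 56.7 RPM (SD, n = 3) and 94.2 ± 30.2 RPM (SD, n = 4), with a log2 fold change of 0.70 (SE 0.63). Without NC3 it was 1.33 and met the call thresholds as higher in hypercapnia, in a fit that called 2.57% of all genes. Without NC2 it was 0.08, and it was 0.15 and 0.22 in edgeR with and without a filter and 0.09 in DESeq2.

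Alox5 encodes 5-lipoxygenase, which starts leukotriene synthesis. Its level was 11.8, 21.4 and 30.1 RPM in NC1 to NC3 versus 13.7, 11.7, 16.8 and 20.9 RPM across HC1 to HC4. NC3 and NC2 were highest, but NC1 lay among the hypercapnic libraries. The means of 21.1 ± 9.16 RPM (SD, n = 3) and 15.8 ± 4.03 RPM (SD, n = 4) gave a log2 fold change of -0.34 (SE 0.36), which was -0.68 without NC1 and -0.04 without NC3. It was -0.69 and -0.66 in edgeR with and without a filter, and -0.74 in DESeq2, but was not called there.

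Alox5ap encodes FLAP, the membrane protein that presents arachidonate to 5-lipoxygenase. Its level was 313, 876 and 1227 RPM in NC1 to NC3 versus 554, 612, 502 and 420 RPM across HC1 to HC4. NC2 and NC3 lay above all hypercapnic libraries and NC1 below them all. The log2 fold change was -0.43 (SE 0.49) and ran from -1.002 without NC1, where the gene met the call thresholds, to -0.02 without NC3. It was -0.90 and -0.85 in edgeR with and without a filter, and -0.95 in DESeq2, but was not called there. For both Alox5 and Alox5ap, NC1 was the lowest and NC3 the highest normocapnic library, as for the macrophage sum, which is mostly Lyz2. Of the other macrophage markers, Cd68 and Fcgr1 had this order. Adgre1, Csf1r, Cd14, Mrc1, Mertk, Itgam and Ms4a7 did not. The part of macrophage RNA in the values of Alox5 and Alox5ap was not tested.

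Lta4h encodes leukotriene A4 hydrolase, which makes leukotriene B4. Its level was 147, 126 and 189 RPM in NC1 to NC3 versus 105, 107, 139 and 108 RPM across HC1 to HC4. All hypercapnic libraries but HC3 were below the lowest normocapnic library. It was the steadiest member, the highest library exceeding the lowest by 1.80-fold, and its means were 154 ± 31.9 RPM (SD, n = 3) and 115 ± 16.3 RPM (SD, n = 4). The log2 fold change of -0.41 (SE 0.17), or -0.25 without NC3 and -0.54 without NC2, was below the fold threshold. In edgeR with a filter (-0.61) and in DESeq2 (-0.66) it was past that threshold but not called.

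Ltc4s encodes leukotriene C4 synthase, the first enzyme of the cysteinyl leukotriene branch. Its level was 18.2, 72.2 and 48.2 RPM in NC1 to NC3 versus 23.2, 27.99, 18.5 and 27.96 RPM across HC1 to HC4. The hypercapnic libraries lay close together, while NC1 fell below them and NC2 and NC3 rose above. Means were 46.2 ± 27.1 RPM (SD, n = 3) and 24.4 ± 4.54 RPM (SD, n = 4), with a log2 fold change of -0.71 (SE 0.48). Ltc4s met the thresholds as lower in edgeR without a filter (-1.10, where 2.99% of genes were called lower), in DESeq2 (-1.16, 3.76% lower and 6.25% in either direction) and without NC1 (-1.26). Without NC2 the value was -0.29, and the thresholds were not met.

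Dpep2 encodes a membrane dipeptidase that converts leukotriene D4 to leukotriene E4. Its level was 298, 705 and 514 RPM in NC1 to NC3 versus 261, 252, 214 and 222 RPM across HC1 to HC4. Every hypercapnic library was below every normocapnic library, although HC1 was close to NC1. Means were 506 ± 204 RPM (SD, n = 3) and 237 ± 22.8 RPM (SD, n = 4), a 2.13-fold higher mean in normocapnia. On the log2 scale the difference was -1.01 (SE 0.30), between -1.35 without NC1 and -0.73 without NC2. Its call held in 15 of 17 alternatives and was lost without NC3 (-0.95) and with the replicate number as a block (-0.98), a fit that called 2.5% of all genes.

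Dpep3 encodes a related membrane-anchored protein of the dipeptidase family, whose place in leukotriene handling is less clear. Its level was 7.63, 25.7 and 11.6 RPM in NC1 to NC3 versus 2.61, 1.16, 2.62 and 0.542 RPM across HC1 to HC4. In reads this was 171, 600 and 168 against 61, 23, 42 and 8. The groups were apart, with the lowest normocapnic library, NC1, well above HC1 and HC3, and the spread was wide within each group. The 8 reads of HC4 carry a 95% exact Poisson interval of 0.234 to 1.07 RPM, which covers counting error only.

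Means of Dpep3 were 14.9 ± 9.48 RPM (SD, n = 3) in normocapnia and 1.73 ± 1.05 RPM (SD, n = 4) in hypercapnia, 8.62-fold higher in normocapnia. Without NC2 the normocapnic mean was 9.60 RPM and the ratio 5.54. Its log2 fold change was -2.47 (SE 0.51), and leaving out each library in turn moved it between -2.83 without NC1 and -2.02 without NC2. The value depended on the pseudocount, at -1.48 with 5 RPM and -3.08 with 0.1 RPM, and was -3.28 in DESeq2. With the replicate number as a block it was -2.23 and did not meet the thresholds, which it met in the other 16 of 17 alternatives. These are values of the comparison on which the list was drawn up.

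**Figure D2:**
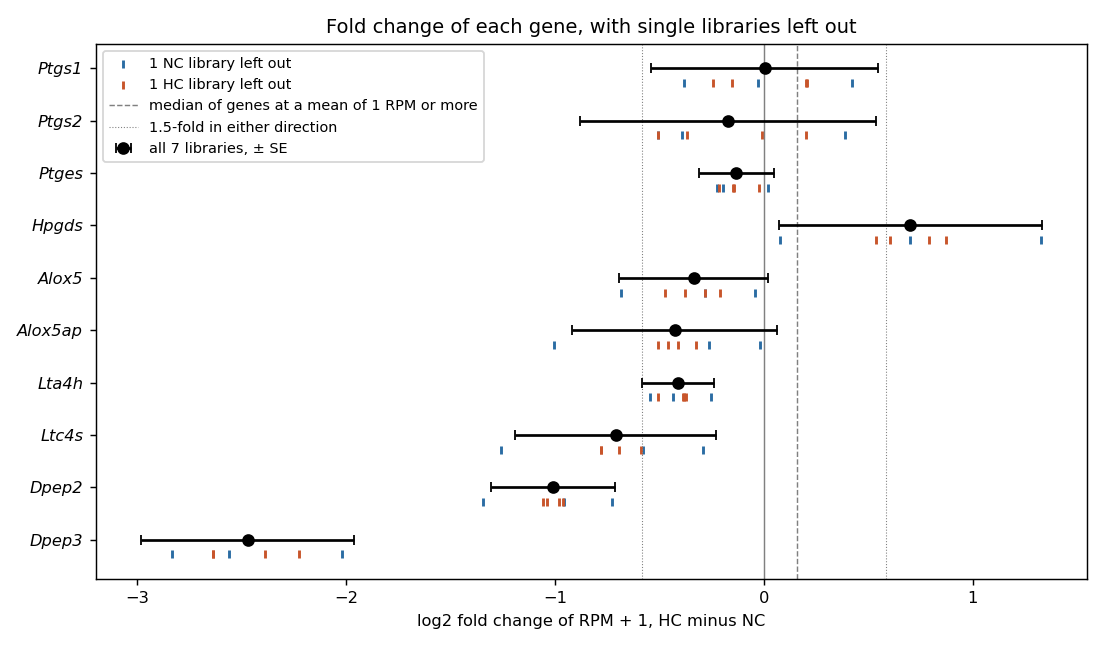
Log2 fold change of each member, hypercapnia minus normocapnia, with the limma SE as bars, the values with each library left out as ticks coloured by its group, the median of genes at 1 RPM or more as a dashed line and 1.5-fold as dotted lines. Dpep3 at -2.47 and Dpep2 at -1.01 lie lowest, and the ticks of Ptgs1, Ptgs2 and Ptges fall on both sides of 0.

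Without NC1, 4 of 10 members met the thresholds, Alox5ap, Ltc4s, Dpep2 and Dpep3, all lower in hypercapnia. The same fit called 8.32% of all genes. Without NC3, Hpgds and Dpep3 met them, the former higher and the latter lower. Which members met the thresholds thus depended on the normocapnic libraries kept, and Dpep3 met them in both fits.

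Relative to Dpep2, Dpep3 was also low in hypercapnia. Dpep3 reached 2.56, 3.64 and 2.25 RPM per 100 RPM of Dpep2 in NC1 to NC3, and the hypercapnic libraries reached 1.001, 0.459, 1.23 and 0.244. The groups were apart, with means of 2.81 ± 0.729 (SD, n = 3) and 0.733 ± 0.459 (SD, n = 4). Divided by each of the 10 macrophage markers in turn, Dpep3 was lower in all hypercapnic libraries than in any normocapnic library for 10 of 10 markers. For Dpep2 this held for 7 of 10, the exceptions being Lyz2, Cd14 and Mertk, and its mean ratio was lower in hypercapnia for 10 of 10. Of those markers 2 were called higher in hypercapnia, Adgre1 and Ms4a7, and 0 lower, so the ratios to these genes also carry a difference of the divisor. The ratios were chosen after the values were seen. Each reuses the Dpep2 or Dpep3 values of the comparison on which the list was drawn up. The groups were already apart in both genes before division, so the counts over markers are a description and no separate evidence.

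**Figure D3:**
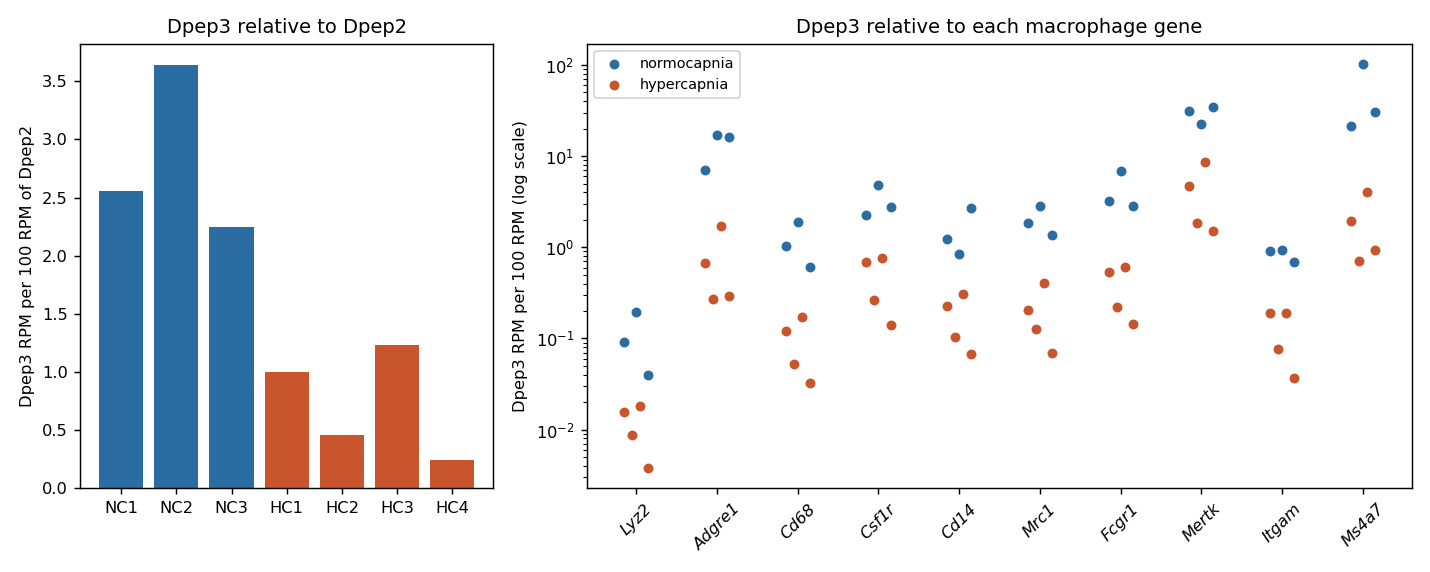
Left, bars give Dpep3 per 100 RPM of Dpep2 in each library on a linear axis, with 2.25 to 3.64 in normocapnia (NC) and 0.244 to 1.23 in hypercapnia (HC). Right, points give Dpep3 per 100 RPM of each of 10 macrophage genes in each library on a log axis, and the hypercapnic points lie below the normocapnic points for 10 of 10 genes.

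The genes whose levels were most like those of Dpep3 over the 7 libraries, among 12503 others at 1 RPM or more, were Wfdc21 (Pearson r = 0.994 on log2(RPM + 1)), Gpbp1l1 (0.972), Kif5b (0.970), Akap8 (0.968) and Fbxo22 (0.963). The points share their libraries and their group difference, and no test was made. Wfdc21 had 1.92, 4.83 and 2.55 RPM in NC1 to NC3 versus 0.942, 0.553, 1.19 and 0.339 RPM across HC1 to HC4, so NC2 was highest and HC4 lowest, as for Dpep3. Dpep2 was 35th in this order with r = 0.915, followed among the members by Ltc4s (0.651), Lta4h (0.604), Alox5ap (0.516) and Alox5 (0.398). Ptgs2 had r = 0.29, Ptgs1 -0.17 and Hpgds -0.53.

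Dpep2 and Dpep3 lie next to each other in the RefSeq gene order of GRCm38.p6. None of the 3 nearest genes of the table on either side was called. On the side of Dpep3 these were Slc12a4, Lcat and Psmb10, with log2 fold changes of 0.0011, 0.68 and 0.70, and on the side of Dpep2 Ddx28 (0.48), Dus2 (0.21) and Nfatc3. Nfatc3, which encodes a calcineurin-regulated transcription factor, had 85.0, 76.1 and 119 RPM in NC1 to NC3 versus 64.9, 54.6, 73.8 and 71.4 RPM across HC1 to HC4. Its groups were apart, but its log2 fold change of -0.47 (SE 0.19) was below the fold threshold, with an adjusted p of 0.915 in limma.

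The rest of the pathway gives the setting of the members. Of 65 further genes of the eicosanoid pathway, 61 were in the table and 36 averaged 1 RPM or more. In limma 1 was called higher and 1 lower at the unadjusted thresholds, 3.28% of the 61 beside 2.57% of all genes, and 0 passed adjustment over all genes, the lowest adjusted p being 0.827. Log2 fold changes were above 0 in 41 and below 0 in 19, beside 12843 and 8644 of all genes, with a median of 0.09 beside 0.02 for all genes. The median was 0.32 for the 36 genes at 1 RPM or more, beside 0.16 for all genes at that level. Over the whole list it was 0.06 with quantile normalization, 0.18 in edgeR without a filter, 0.13 without NC1 and 0.02 without NC3. The genes above and below 0 were 34 and 26 with quantile normalization, 44 and 16 without NC1, and 36 and 23 without NC3.

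Cyp4f18, a cytochrome P450 that inactivates leukotriene B4, was the gene called higher. Its level was 17.8, 26.6 and 8.74 RPM in NC1 to NC3 versus 31.8, 44.1, 38.7 and 31.4 RPM across HC1 to HC4, with groups apart. On the log2 scale Cyp4f18 differed by 1.11 (SE 0.37), with an adjusted p of 0.915 in limma. The call was lost without NC1 (1.18), HC2 (1.02) or HC3 (1.08) and with the replicate number as a block (1.18). Without NC3 the value was 0.71 and still called.

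Mgst2, a microsomal glutathione transferase that can also make leukotriene C4, was the gene called lower. Its level was 0.535, 0.770 and 1.10 RPM in NC1 to NC3 versus 0, 0.301, 0.500 and 0 RPM across HC1 to HC4. These values rest on few reads, and the log2 fold change of -0.60 (SE 0.19) had an adjusted p of 0.915 in limma. The call was lost in edgeR (-2.21 with a filter, -2.17 without), in DESeq2 (-2.29), with a pseudocount of 5 RPM (-0.16), with quantile normalization (-0.83) and with the replicate number as a block (-0.52). It was also lost without NC2 (-0.60), NC3 (-0.48), HC1 or HC4 (both -0.52).

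Upstream, Acsl4, which couples arachidonate to coenzyme A, had the smallest p of the list. Its level was 147, 123 and 116 RPM in NC1 to NC3 versus 89.5, 73.9, 103 and 88.1 RPM across HC1 to HC4, every hypercapnic library being below every normocapnic one. The log2 fold change of -0.53 (SE 0.14, adjusted p = 0.827 in limma) fell short of the fold threshold, but it was called lower with median-of-ratios scaling (-0.68), in edgeR with a filter (-0.65) and without (-0.64), in DESeq2 (-0.70) and without NC3 (-0.60) or HC3 (-0.61). Downstream, Ptgr2, a prostaglandin reductase, had 35.3, 19.6 and 24.6 RPM in NC1 to NC3 versus 42.9, 35.8, 39.5 and 36.0 RPM across HC1 to HC4, also with groups apart. Its log2 fold change of 0.56 (SE 0.20, adjusted p = 0.915 in limma) was likewise under the threshold, which was met without NC1 (0.78) and with the replicate number as a block (0.59).

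In the remaining groups of the pathway no gene was called with all 7 libraries in limma. The 6 other prostaglandin synthases all had positive log2 fold changes, with a median of 0.63 that was 0.44 with quantile normalization, although 1 of the 6 was negative in edgeR without a filter and in DESeq2. NC3 was the lowest library for all 6, and without it 4 were positive and 2 negative, with a median of 0.11. Ptgds had a positive value but a higher mean in normocapnia (2.73 against 2.43 RPM). Of these genes the smallest p belonged to Cbr1 at 1.16 (SE 0.90), which was 0.27 without NC3. Of 8 prostanoid receptors, 3 were at 1 RPM or more, and the prostacyclin receptor Ptgir had 0.45 (SE 0.43). Among 6 other lipoxygenases only Alox15 reached 1 RPM, at 0.09 (SE 0.59). Of the leukotriene and lipoxin receptors the smallest p was that of Fpr2 at -0.61 (SE 0.29), and of the epoxide branch that of Cyp2j6 at 0.33 (SE 0.43). These values moved with the libraries kept. Ptgir was 0.97 and called without NC2 but 0.09 without NC3, Cyp2j6 was 0.79 and called without NC1 but -0.11 without NC2, and Fpr2 was -0.87 and called without NC1 but -0.34 without NC3. With a library left out, other pathway genes were called that were not called with all 7. These were Pla2g2e, Ptgr2, Fpr2 and Cyp2j6 without NC1, where 8.32% of all genes were called, and Tbxas1, Abcc4, Ptgir and Abcc1 without NC2, where 5.04% were called. They were Acsl4 and Mgst3 without NC3 (2.57%), Pla2g2d without HC1 (1.61%) and Acsl4 without HC3 (2.39%). With the replicate number as a block (2.5%) they were Cbr1 (1.31), Fam213b and Ptgr2.

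**Figure D4:**
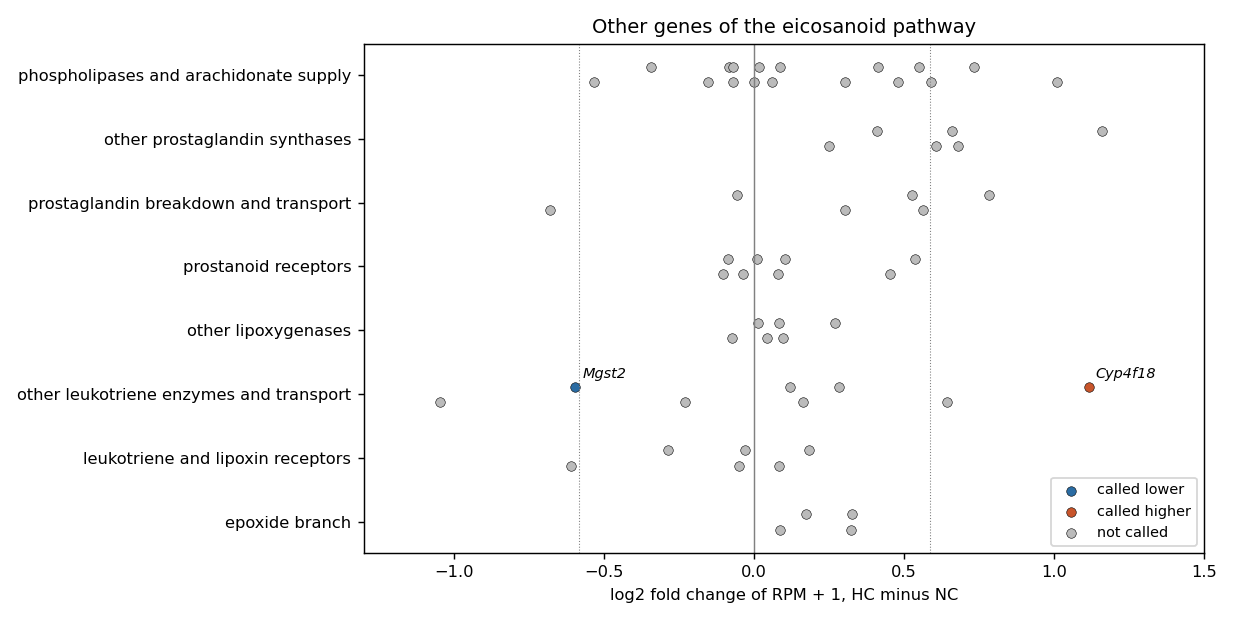
Log2 fold change, hypercapnia minus normocapnia, of the 61 other pathway genes by role, 1 point per gene, with dotted lines at 1.5-fold. The called genes are coloured and labelled, Cyp4f18 at 1.11 and Mgst2 at -0.60, and grey points past the lines had a p above the threshold.

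Genes close to the members in function are given as values, and they were chosen after their values were seen. Dpep1, the best-known membrane dipeptidase, had 17.4, 24.0 and 23.0 RPM in NC1 to NC3 versus 2.78, 2.66, 23.2 and 38.9 RPM across HC1 to HC4. HC1 and HC2 were thus low as for Dpep2 and Dpep3, while HC3 and HC4 were not, and the log2 fold change was -1.05 (SE 1.02). Ptger4, the prostaglandin E2 receptor named above, had 135, 177 and 37.2 RPM in NC1 to NC3 versus 148, 152, 155 and 110 RPM across HC1 to HC4, with a log2 fold change of 0.54 (SE 0.56). Hpgd, which breaks prostaglandin E2 down, had 22.9, 8.85 and 48.0 RPM in NC1 to NC3 versus 7.02, 8.34, 17.4 and 27.5 RPM across HC1 to HC4 (-0.68, SE 0.72). The groups overlapped in Dpep1, Ptger4 and Hpgd.

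Markers of the other cells that use this pathway were read beside the members. The sum of 10 neutrophil markers was 82.5 to 230 RPM in normocapnia and 105 to 331 RPM in hypercapnia, with positive log2 fold changes in 7 and negative ones in 3. Mmp8 was called higher, and it was high in HC2 (27.0 RPM), where S100a9 (5.28 RPM) and Retnlg (0.904 RPM) were at their lowest. The sum of 6 eosinophil markers was 1.58 to 7.90 RPM and 4.11 to 6.09 RPM, with the granule genes Epx and Prg2 near 0. Platelet markers summed to 385 to 3041 RPM and 1047 to 2739 RPM, nearly all of it Pf4 and Ppbp, while of the receptor genes Itga2b was at 1.38 to 6.91 RPM, Gp1bb at 0.069 to 2.23 RPM and Gp9 and Gp6 near 0. The 6 fibro-adipogenic markers summed to 1034 to 1767 RPM and 935 to 2230 RPM, and the 10 satellite cell markers to 537 to 4383 RPM and 855 to 1694 RPM. Lymphocyte markers stayed between 0.482 and 3.17 RPM in all 7 libraries. The groups overlapped in each of these sums, and in those of macrophages, mast cells and endothelial cells. Their part in the members' values was not tested.

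**Figure D5:**
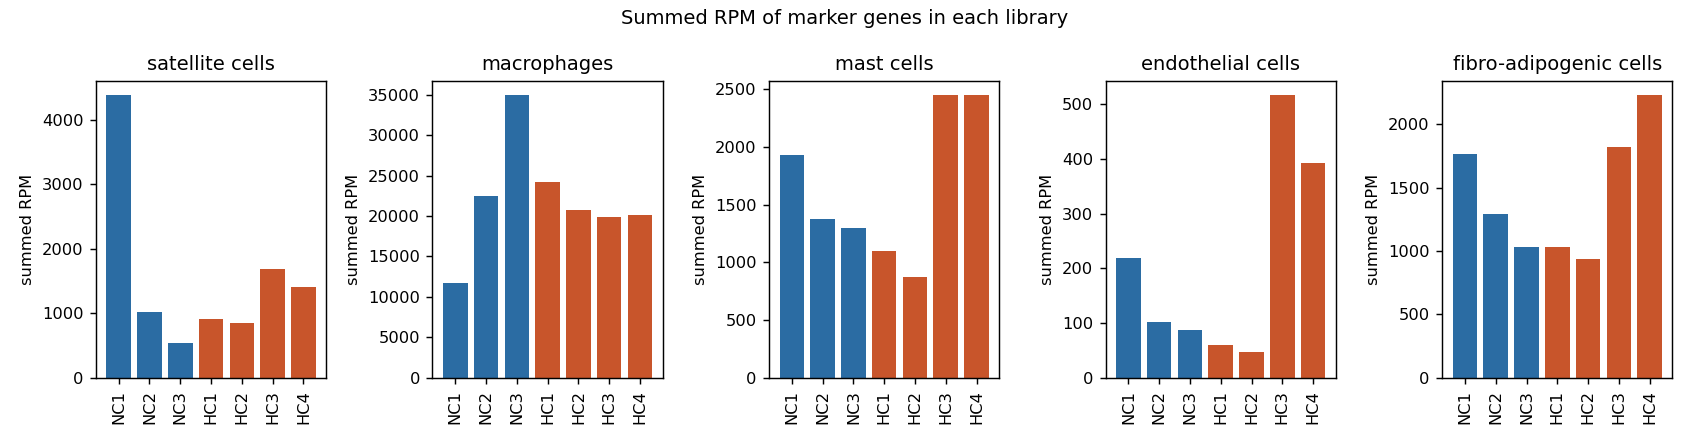
Summed RPM of the markers of satellite cells, macrophages, mast cells, endothelial cells and fibro-adipogenic cells in each library, each panel on its own linear axis from 0, for normocapnia (NC) and hypercapnia (HC). The groups overlap in each panel, NC1 has the lowest macrophage sum (11711 RPM) and HC3 and HC4 have the highest mast cell sums (2450 and 2447 RPM).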

How the data were processed

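RNA of 7 libraries of sorted Pax7-GFP cells was read with the Ion AmpliSeq Transcriptome Mouse panel. The authors deposited RPM per gene, or read counts relative to the total of the library; the submitters' processing notes name the Transcriptome Analysis Console, and what aligner and build were used is not given in the sources used here. Each value was a whole number of reads within 0.05 reads, for 100% of values, which gave back the library totals, and 0 columns were left unused. The 10 members and all gene lists were chosen with earlier results of these data known. Groups came from the sample titles.

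All 23930 genes were fitted without a filter on log2(RPM + 1), a pseudocount of 1 RPM, with limma 3.58.1 (R 4.3.3). Calls needed more than a 1.5-fold difference at an unadjusted p under 0.05, and adjusted p-values (Benjamini-Hochberg) cover all genes. A fold change on this scale understates the change of low genes. Alternatives were pseudocounts of 0.1 and 5 RPM, only genes averaging 1 RPM or more, quantile normalization, median-of-ratios scaling, a mean-dependent prior variance, DESeq2 1.42.0 and edgeR 4.0.16 (filtered or not) on the recovered reads, each library left out, and the replicate number as a block. The limma fit was tested on simulated data for the same 4 against 3 libraries and 23930 genes. At a dispersion of 0.02 it called 88% of genes changed 2-fold and 100% of genes changed 4-fold. At 0.4 these shares were 28% and 70%. Changed genes were drawn only from those averaging 1 RPM or more, so these shares do not cover lower genes such as Ptges and Mgst2. All genes shared the same dispersion, and which value is nearer to these libraries was not examined.

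Named were all members, each other pathway gene called, the gene with the smallest p among those at 1 RPM or more in each role, the most abundant genes of marker lists, the 5 genes most like Dpep3 and the 3 genes on each side of the dipeptidase pair. Markers named beside these, and Dpep1, Ptger4 and Hpgd, were chosen after their values were seen. An item of the marker lists is not reported here. Promoters are from RefSeq, GRCm38.p6, matched by symbol for 8 of 10 members, not Dpep2 and Alox5ap.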

Additional observations from a re-analysis of the deposited data

Results flagged for a closer look

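Of 19 genes examined for a library far from the others of its group, the members and the 9 other pathway genes named as called or as having the smallest p of their role, 1 stood out, and chance gives about 1 in 20 groups. Lta4h in HC3 was 139.1 RPM, against 105 to 108 RPM in the other hypercapnic libraries. With HC3 left out, the log2 fold change of Lta4h was -0.51 in place of -0.41, and the gene was still not called.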

How the results depend on the processing

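Dpep2, Dpep3, Cyp4f18 and Mgst2, the members and other pathway genes called above, kept their sign in each alternative that gave a value for them, and genes most like Dpep3, neighbours and markers were not followed over the alternatives. The 2 called members became 0 with the replicate number as a block and ran from 2 to 4 with each library left out, and the median of the members, -0.37, was -0.70 in DESeq2 and ran from -0.56 to -0.27 with each library left out. The 2 other pathway genes called became 1 with a pseudocount of 5 RPM, 1 with a filter at a mean of 1 RPM and 1 with quantile normalization, and ran from 1 to 5 with each library left out, the 5 being reached without NC1 and without NC2, fits that called 8.32% and 5.04% of all genes. The cause was not tested, except that the filter removed Mgst2. Replicate numbers did not pair the libraries: deviations from the group means correlated at -0.35, 0.50 and -0.04 for numbers 1, 2 and 3, and not every library correlated best with its own number, so the block, which leaves HC4 without a partner and so rests on the other 6 libraries, gave 598 calls over all genes, against 615 in all 7 libraries and 477 without HC4, and is no measure of a smaller difference. Over all genes 343 were called higher and 272 lower, against 294 and 508 in edgeR with a filter, 407 and 642 in edgeR without one, 519 and 785 in DESeq2, 1495 and 495 without NC1 and 235 and 381 without NC3. The median of genes at 1 RPM or more moved from 0.16 to 0.04 under median-of-ratios scaling and -0.01 after quantile normalization, and Dpep2 and Dpep3 were called lower under each of these. Depth limits Ptges, Mgst2 and Dpep3 in HC4, where values rest on few reads.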
